A study of Mus musculus with 12 samples.

Results

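Retinas that had received an AAV carrying a short hairpin RNA against *Pax6*, and no NMDA, were compared with wild-type retinas across all genes and transcripts measured. The libraries were taken by their labels and number 4 of the 12 RNA-seq libraries of the series, 2 of sh*Pax6* PBS retinas and 2 of WT (B6J) PBS retinas. The comparison asks how knockdown retinas differ from WT retinas without NMDA, after an injection of PBS. The series pairs each of 3 genotypes (WT, sh*Pax6* and JNK3 KO) with an intravitreal injection of PBS or of 40 mM NMDA, with 2 libraries per group. Poly(A) RNA was sequenced in all of them.

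WT mice were C57BL/6J, and their eyes received 1 µL of PBS. The sh*Pax6* mice were of the same strain at 2 months of age by the study's text, and their eyes received 2 µL of an AAV2.7m8 vector, in which the U6 promoter drives the hairpin and GFP marks transduction, and 1 µL of PBS. JNK3 KO mice lack *Jnk3* (*Mapk10*), received PBS, and serve here as a set of retinas of another genotype without NMDA. The age of the WT and JNK3 KO mice behind these libraries is not given in the labels. Each library held RNA of more than 3 retinas, so the values are averages over eyes, and the U6 promoter is active in any cell type that the capsid enters. None of the 12 libraries is labelled with the scrambled hairpin, and whether WT or JNK3 KO eyes received any virus is not stated in the labels. If they did not, the hairpin against *Pax6*, the virus, GFP and the additional injection cannot be told apart. The labels and the methods differ on the route of the virus (intravitreal or subretinal). Fewer cells of a type and less RNA per cell cannot be told apart in these bulk samples.

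PAX6 is a transcription factor with a paired domain and a homeodomain that directs the formation of the eye field and the multipotency of retinal progenitors. In the adult retina it is made in amacrine, horizontal and ganglion cells, while photoreceptors and bipolar cells switch it off as they mature. A hairpin transcribed from the U6 promoter is cut by Dicer into a small RNA that guides Argonaute to the matching mRNA.

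The target itself was listed at a lower level in the knockdown libraries. *Pax6* (ENSMUSG00000027168, chromosome 2 from 105668900 to 105697364 on the + strand of GRCm38) stood at 173.48 and 177.3 FPKM in WT PBS but at 94.56 and 92.84 FPKM in sh*Pax6* PBS. The JNK3 KO PBS libraries held 186.72 and 191.41 FPKM. After NMDA the levels were 55.42 and 53.81 FPKM in WT, 67.52 and 58.73 FPKM in sh*Pax6*, and 128.89 and 137.55 FPKM in JNK3 KO. Both sh*Pax6* PBS libraries lay below every WT and JNK3 KO PBS library, at 53.4% of the WT PBS mean (93.7 against 175 FPKM). After NMDA the sh*Pax6* libraries were not below the WT libraries. The log2 fold change between sh*Pax6* PBS and WT PBS was -0.90 (SE 0.07, adjusted p = 6.04e-05 from limma, 2 libraries per group), which is below the 1 that the call of a change required here. Fold changes are differences of mean log2(FPKM + 0.1). The added 0.1 understates the change of genes with low levels, while a value of 0 in 1 library of a group can enlarge it. With 2 libraries per group of pooled retinas, the p-values may measure technical spread only, and an exact permutation test of 2 against 2 libraries cannot go below 0.333.

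Of the 26 annotated *Pax6* transcripts, 18 averaged over 1 FPKM in WT or knockdown retinas. The most abundant, the protein-coding *Pax6*-204, held 52.44 and 54.82 FPKM in WT PBS but 22.82 and 20.93 FPKM in sh*Pax6* PBS. Its log2 fold change of -1.29 (SE 0.32, adjusted p = 0.0898) did not pass the test, although both knockdown libraries lay below both WT libraries. *Pax6*-207, a protein-coding transcript of 2559 bases, went the other way, with 0.6 and 0 FPKM in WT PBS and 10.99 and 11.84 FPKM in sh*Pax6* PBS. JNK3 KO PBS libraries listed it at 0. It made up 0.173% of the summed *Pax6* transcripts of WT PBS retinas, against 12.2% with the knockdown. Relative to the other *Pax6* transcripts its difference was 6.51 on the log2 scale (adjusted p = 0.000278 from diffSplice in limma), and as a transcript by itself it had a log2 fold change of 5.44 (SE 1.89, adjusted p = 0.226). In sh*Pax6* NMDA retinas it was listed at 0 and 4.91 FPKM, so its presence did not repeat in each knockdown library.

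The promoters of *Pax6* and of 6 genes that stand for the groups described next are printed so that the stretch before each start site can be read beside the values. *S100a8* and *S100a9* stand for the neutrophil genes, *C1qb*, *C1qc* and *Trem2* for the microglial genes, and *Sag* for the rod genes. Each runs from 250 bases before to 50 bases after a RefSeq start site (build GRCm38.p6) and is written 5′ to 3′ on the gene's strand. The windows are chr2:105668646-105668945 (+) and chr2:105682213-105682512 (+) for *Pax6*, chr3:90668821-90669120 (+) for *S100a8*, chr3:90695672-90695971 (-) for *S100a9*, chr4:136886151-136886450 (-) for *C1qb*, chr4:136892865-136893164 (-) for *C1qc*, chr17:48346151-48346450 (+) for *Trem2* and chr1:87803430-87803729 (+) for *Sag*. Capitals mark matches to TAATTA (a homeodomain core), TTCACGC (a core of the PAX6 paired domain site), TAATCC (CRX), GAGGAA (the ETS factor PU.1) or TTGCNNAA (C/EBP), searched on both strands.
Pax6 start 1: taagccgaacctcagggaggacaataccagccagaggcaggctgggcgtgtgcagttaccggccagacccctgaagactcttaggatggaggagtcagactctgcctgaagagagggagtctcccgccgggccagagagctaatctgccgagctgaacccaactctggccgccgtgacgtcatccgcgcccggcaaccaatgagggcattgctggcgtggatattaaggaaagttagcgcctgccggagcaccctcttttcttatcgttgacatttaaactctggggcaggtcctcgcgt
Pax6 start 2: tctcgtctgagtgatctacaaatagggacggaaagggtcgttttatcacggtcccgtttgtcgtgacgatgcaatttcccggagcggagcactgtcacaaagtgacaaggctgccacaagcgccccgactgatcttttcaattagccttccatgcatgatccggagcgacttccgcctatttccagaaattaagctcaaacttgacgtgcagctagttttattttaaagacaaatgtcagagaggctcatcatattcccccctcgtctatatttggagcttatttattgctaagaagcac
S100a8: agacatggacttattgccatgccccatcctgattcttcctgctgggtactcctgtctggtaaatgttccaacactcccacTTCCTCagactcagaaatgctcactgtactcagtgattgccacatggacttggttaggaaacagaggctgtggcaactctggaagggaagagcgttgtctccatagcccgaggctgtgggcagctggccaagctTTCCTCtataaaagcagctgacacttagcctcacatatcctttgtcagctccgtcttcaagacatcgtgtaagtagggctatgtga
S100a9: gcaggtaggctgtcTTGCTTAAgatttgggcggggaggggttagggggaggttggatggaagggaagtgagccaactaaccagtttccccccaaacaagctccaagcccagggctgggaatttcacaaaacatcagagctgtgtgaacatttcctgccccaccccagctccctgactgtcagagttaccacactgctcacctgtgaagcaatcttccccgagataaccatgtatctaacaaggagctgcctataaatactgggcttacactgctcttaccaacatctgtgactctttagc
C1qb: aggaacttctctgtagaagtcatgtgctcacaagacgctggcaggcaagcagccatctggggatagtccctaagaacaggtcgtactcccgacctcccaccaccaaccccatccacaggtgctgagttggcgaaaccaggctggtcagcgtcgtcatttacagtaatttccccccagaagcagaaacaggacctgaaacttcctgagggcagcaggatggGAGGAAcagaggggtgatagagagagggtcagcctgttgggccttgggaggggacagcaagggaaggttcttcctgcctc
C1qc: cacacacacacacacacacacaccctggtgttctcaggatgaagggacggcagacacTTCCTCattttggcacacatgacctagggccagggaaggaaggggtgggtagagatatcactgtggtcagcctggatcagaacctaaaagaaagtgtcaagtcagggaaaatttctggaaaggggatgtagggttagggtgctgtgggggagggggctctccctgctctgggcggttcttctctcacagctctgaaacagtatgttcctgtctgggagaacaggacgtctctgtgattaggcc
Trem2: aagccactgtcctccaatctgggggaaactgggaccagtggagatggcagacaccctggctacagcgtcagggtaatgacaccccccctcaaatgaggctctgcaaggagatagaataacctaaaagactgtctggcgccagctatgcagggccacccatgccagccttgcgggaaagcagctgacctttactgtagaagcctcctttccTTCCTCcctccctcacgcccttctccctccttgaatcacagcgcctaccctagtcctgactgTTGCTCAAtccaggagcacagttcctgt
Sag: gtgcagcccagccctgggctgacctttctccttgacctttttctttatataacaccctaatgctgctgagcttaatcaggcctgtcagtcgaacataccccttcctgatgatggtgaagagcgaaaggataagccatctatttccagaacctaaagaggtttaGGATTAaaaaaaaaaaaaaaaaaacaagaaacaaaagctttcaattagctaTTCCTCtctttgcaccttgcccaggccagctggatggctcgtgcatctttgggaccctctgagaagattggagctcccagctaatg

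Of the 25 genes made up of *Pax6* and those with the largest falls and rises, 23 have a promoter entry. No match overlapped another (0 overlaps). GAGGAA was held by 28.3% of all 32851 promoters of 300 bases, TTGCNNAA by 10.8%, TAATCC by 7.06%, TAATTA by 5.29% and TTCACGC by 1.26%. Neither *Pax6* window holds any of the 5 motifs. GAGGAA stood on the - strand of *S100a8* from -170 to -165 and from -36 to -31, on the + strand of *C1qb* from -30 to -25, and on the - strand of *C1qc* from -193 to -188 and of *Trem2* from -40 to -35, counted from the start site. *S100a9* held TTGCNNAA on the + strand from -236 to -229, and *Trem2* held it from 22 to 29. In the rod gene *Sag*, TAATCC on the - strand from -87 to -82 preceded GAGGAA on the - strand from -36 to -31. Among promoters of genes that rose in sh*Pax6* PBS, 44.3% held GAGGAA, against 31.7% among genes that fell and 26.6% among all genes tested. In the same order the shares were 11.5%, 5.72% and 6.12% for TAATCC, 9.84%, 9.30% and 8.49% for TTGCNNAA, and 3.28%, 1.07% and 1.70% for TTCACGC. The homeodomain core TAATTA was held by 2 of 61 promoters of genes that rose, 12 of 559 of genes that fell and 385 of 14824 of genes tested, and TTCACGC by 2 of the 61. These values are a description with no test. A match describes letters only.

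Among the 4 libraries compared, 1 knockdown library stood apart in what it detected, before any comparison of genes. Genes above 0 FPKM numbered 21969 and 21887 in WT PBS and 18306 and 20304 in sh*Pax6* PBS. Of the genes tested, 558 and 565 were listed at 0 in the WT PBS libraries and 1026 and 696 in the sh*Pax6* PBS libraries. The libraries differed less in genes above 1 FPKM, at 14431 and 14422 in WT and 14093 and 13948 in sh*Pax6* PBS. Low detection was not particular to that library in the series. Replicate 1 of sh*Pax6* NMDA had 18089 genes above 0 FPKM and 961 tested genes at 0, and replicate 1 of WT NMDA had 18853 and 860. The spacing of low values in short genes of 1 transcript gave a depth of 23.1 and 24.5 M fragments (M for 1e6) for WT PBS and 24.8 and 21.4 M for sh*Pax6* PBS. That scan found 718 and 674 such values in WT PBS, and 185 and 494 in sh*Pax6* PBS. Of these values 87.3% and 84.0% in WT PBS, and 70.8% and 82.2% in sh*Pax6* PBS, lay within 0.15 of a whole fragment. So sh*Pax6* PBS replicate 1 held the fewest low values, its depth rests on the poorest fit, and the part of this in the results was not tested. Replicates lay further apart in sh*Pax6* PBS, by a median of 0.22 per gene on the log2 scale, than in WT PBS (0.13) or JNK3 KO PBS (0.14).

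**Figure D1:**
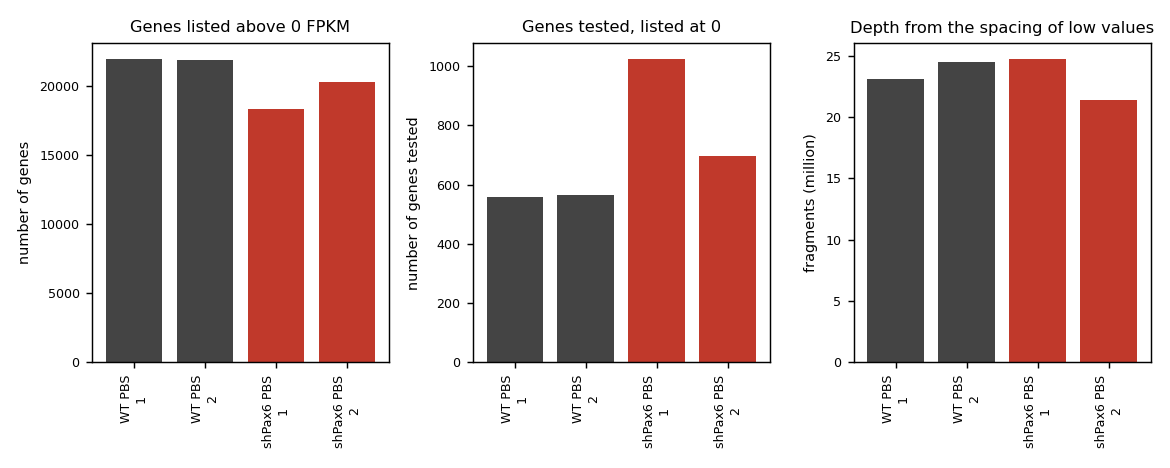
Number of genes listed above 0 FPKM, number of the genes tested that were listed at 0, and depth in M fragments, for the 2 WT PBS (grey) and 2 shPax6 PBS (red) libraries, 1 bar per library. Replicate 1 of shPax6 PBS has the fewest genes above 0 (18306) and the most tested genes at 0 (1026). The 4 estimated depths lie between 21.4 and 24.8 M, and the 24.8 M of that replicate rests on 185 values and the poorest fit.

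Across genes, far more were called lower than higher in the knockdown retinas. Of 16471 genes tested, 83 rose (0.504%) and 603 fell (3.66%), and in each of these both sh*Pax6* PBS libraries lay beyond both WT PBS libraries. Without regard to the test, both knockdown libraries lay above both WT libraries in 3680 genes (22.3%) and below them in 5789 (35.1%). Chance alone separates 2 against 2 libraries in a share of 0.333 of genes, both directions together. The median log2 fold change of all genes was -0.06, with quartiles of -0.43 and 0.18, and 56.7% of the genes had a value below 0. Falls made up 6.10% of the 6558 genes with a mean of 1 to 10 FPKM, 2.48% of the 7543 genes with 10 to 100 FPKM and 1.91% of the 838 genes above 100 FPKM. Rises made up 0.717%, 0.411% and 0.597% of the same classes. Among the genes that fell, 28 were listed at 0 in both knockdown libraries, which gives no bound for their fold. With these included, sh*Pax6* PBS replicate 1 was at 0 in 67 of the falls and replicate 2 in 32. The part of such 0 values in the number of falls was not tested. With quantile normalization 170 genes rose and 432 fell, so the lower share of the calls was 71.8% in place of 87.9%. With the spread estimated from these 4 libraries alone 42 genes rose and 252 fell. Of the 83 rises 36 kept their call there, and of the 603 falls 229 did. The naming rule took 204 genes other than *Pax6*, many of them without a call to lose, and 31 lost theirs. Without sh*Pax6* PBS replicate 2, 200 genes rose, and without WT PBS replicate 1 or 2 the falls numbered 376 or 347. The cause of these shifts was not tested.

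**Figure D2:**
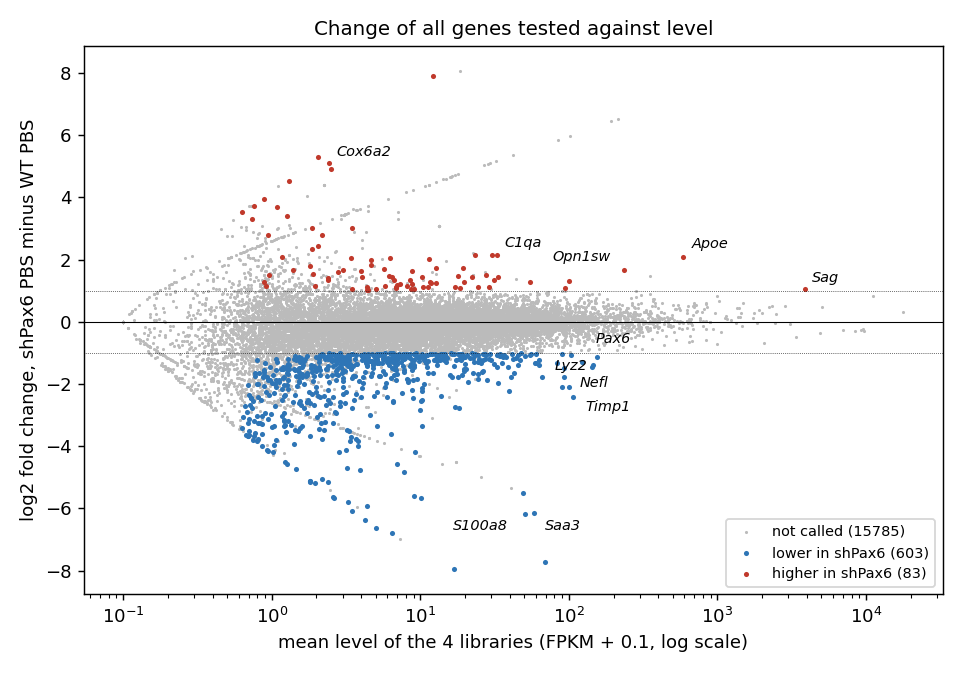
Log2 fold change (shPax6 PBS minus WT PBS) of each of 16471 genes against its mean level in the 4 libraries (FPKM + 0.1, log scale). Blue points are the 603 genes that fell, red points the 83 that rose, grey points the others, and dotted lines mark 1 and -1. Pax6 lies at -0.90, just inside the lower line.

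Genes of neutrophils, the phagocytes that enter tissue from blood early in inflammation, had the lowest median of all lists. *S100a8* and *S100a9*, which encode the subunits of calprotectin, were abundant in WT retinas injected with PBS and near 0 in the knockdown. No library of an eye without any injection is in the series, so their level in such a retina is not known here. *S100a8* was listed at 92.61 and 107.55 FPKM in WT PBS, at 1.44 and 1.14 FPKM in sh*Pax6* PBS, with 57.29 and 65.6 FPKM in JNK3 KO PBS. Its log2 fold change against WT PBS was -6.18 (SE 0.18, adjusted p = 5.49e-07 from limma). For *S100a9* the levels were 92.86 and 99.58 FPKM in WT PBS, 2.23 and 1.84 FPKM in sh*Pax6* PBS and 70.71 and 76.1 FPKM in JNK3 KO PBS, with a log2 fold change of -5.50 (SE 0.17, adjusted p = 5.49e-07). *Csf3r*, the receptor for the cytokine G-CSF that drives the making of granulocytes, stood at 18.16 and 18.9 FPKM in WT PBS but at 2.2 and 1.37 FPKM in sh*Pax6* PBS (-3.34, SE 0.23, adjusted p = 3.93e-05). The chemokine receptor gene *Cxcr2* was listed at 6.03 and 5.69 FPKM against 0.22 and 0.27 FPKM (-4.11, SE 0.25, adjusted p = 1.98e-05). In all 4 genes the knockdown libraries were low and did not overlap with the WT libraries, nor with those of JNK3 KO. Of 8 neutrophil genes tested, 6 fell (*S100a8*, *S100a9*, *Retnlg*, *Cxcr2*, *Csf3r* and *Il1b*) and none rose, where 3.66% of all genes fell, with a median log2 fold change of -3.76 beside -0.06 for all genes. The summed level of the list was 228 and 254 FPKM in WT PBS and 7.39 and 5.74 FPKM in sh*Pax6* PBS, with *S100a8* the most abundant. The granule gene *Ngp* was at 0 in 3 of the 4 libraries and at 0.07 FPKM in the other, and *Mmp8* was listed at 0.45 and 0.64 FPKM in WT PBS but at 0 and 0.04 FPKM in sh*Pax6* PBS. The part of neutrophil RNA in the WT libraries in other results was not tested.

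Other genes with large falls include the following. *Saa3*, an acute phase protein, was listed at 107.23 and 122.24 FPKM in WT PBS but at 1.29 and 1.76 FPKM in sh*Pax6* PBS, with a log2 fold change of -6.16 (SE 0.39, adjusted p = 2.46e-05). *Ifitm1*, an interferon-induced membrane protein, stood at 33.86 and 29.29 FPKM against 4.84 and 4.29 FPKM (-2.76). *Srgn*, the proteoglycan of the granules of blood cells, was at 29.18 and 29.85 FPKM against 3.37 and 5.45 FPKM (-2.75). These 3 genes were high in both WT libraries and low in both knockdown libraries. The chitinase-like gene *Chil1* held 146.0 and 147.3 FPKM in WT PBS and 35.07 and 33.35 FPKM in sh*Pax6* PBS (-2.10, SE 0.06, adjusted p = 5.49e-07). *Plac8* (-2.85), *Wfdc17* (-4.84), *Lst1* (-3.34) and *Chil3* (-2.54) fell as well, and so did *Ahnak2* (-2.57), which encodes a giant scaffold protein. The size of 2 of these falls depended on single knockdown libraries. Without sh*Pax6* PBS replicate 1 or 2, *Wfdc17* stood at -2.53 or -7.15 and *Lst1* at -2.20 or -4.47. The call of *Wfdc17* was lost without WT PBS replicate 1 (adjusted p = 0.102) or replicate 2 (0.105), and that of *Lst1* without WT PBS replicate 2 (0.0704). *Chil3* lost its call without WT PBS replicate 1 (adjusted p = 0.0768), WT PBS replicate 2 (0.0881) or sh*Pax6* PBS replicate 2 (0.0702). With the spread of the 2 groups alone, *Wfdc17* (adjusted p = 0.221), *Lst1* (0.149), *Plac8* (0.0622) and *Chil3* (0.0649) lost their calls. Among genes outside the naming rule, chosen after their values were seen, *Hp* (haptoglobin) was at 19.37 and 19.79 FPKM in WT PBS against 0.4 and 0.2 FPKM. The interleukin 1 antagonists *Il1rn* (-5.59) and *Il1r2* (-4.76) fell with it.

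Complement genes of microglia were among those that rose. C1q, the first component of the classical complement pathway, is made from *C1qa*, *C1qb* and *C1qc*, which microglia express in the retina. *C1qa* was listed at 11.51 and 12.47 FPKM in WT PBS, at 57.06 and 50.78 FPKM in sh*Pax6* PBS, with 14.69 and 14.38 FPKM in JNK3 KO PBS. Against WT PBS its log2 fold change was 2.16 (SE 0.11, adjusted p = 6.78e-06). *C1qb* went from 10.82 and 11.49 FPKM to 51.74 and 47.25 FPKM (2.14, SE 0.10, adjusted p = 6.78e-06), and *C1qc* from 8.1 and 8.95 FPKM to 40.15 and 36.44 FPKM (2.15, SE 0.17, adjusted p = 7.58e-05). The 3 genes moved by nearly the same amount, with both knockdown libraries above all WT and JNK3 KO PBS libraries. *Trem2*, a lipid-sensing receptor of microglia, was listed at 1.32 and 1.16 FPKM in WT PBS but at 5.55 and 5.26 FPKM in sh*Pax6* PBS (2.04, SE 0.24, adjusted p = 0.000642). The microglial genes *Fcrls* (2.80) and *Tmem119* (1.42) rose too.

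Other genes of the same list fell. *Lyz2*, lysozyme of macrophages and neutrophils, was at 97.7 and 106.33 FPKM in WT PBS but at 29.04 and 30.31 FPKM in sh*Pax6* PBS (-1.78, SE 0.06, adjusted p = 1.05e-06). *Tyrobp*, the signalling adaptor of TREM2 and of other myeloid receptors, stood at 47.35 and 51.85 FPKM against 24.54 and 20.48 FPKM (-1.14). *Itgam* (-1.18) and *Ptprc* (-1.51), which all these leukocytes share, fell as well. Of the 20 microglia and macrophage genes tested 6 rose, 4 fell and 10 were not called, where 0.504% of all genes rose and 3.66% fell, with a median of 0.67. Their summed level was 271 and 294 FPKM in WT PBS and 358 and 322 FPKM in sh*Pax6* PBS, and *Lyz2* was the most abundant. The homeostatic marker *Cx3cr1* was listed at 3.33 and 3.19 FPKM against 3.01 and 4.52 FPKM and was not called (adjusted p = 0.729). *Csf1r*, the receptor microglia need to survive, was at 7.17 and 8.6 FPKM against 16.95 and 9.28 FPKM (adjusted p = 0.114). Chosen after their values were seen, *Apoc1* (0.95 and 0.44 against 6.01 and 6.13 FPKM) and *Cst7* (0.21 and 0.05 against 2.41 and 1.97 FPKM) rose, genes known in phagocytes that clear lipid-rich debris.

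Within the complement list, 4 of 13 genes rose (0.504% of all genes did) and 2 fell (3.66% of all genes did), with a median of 0.35. Besides the C1q genes, *C4b*, whose product is cleaved downstream of C1q, was at 10.79 and 13.14 FPKM in WT PBS but at 30.44 and 34.36 FPKM in sh*Pax6* PBS (1.43, SE 0.13, adjusted p = 0.000181). *Cfb*, factor B of the alternative pathway, went the other way, from 13.05 and 12.34 FPKM to 3.8 and 3.15 FPKM (-1.84, SE 0.14, adjusted p = 6.04e-05). The receptor gene *C5ar1*, high in neutrophils, fell by 1.91 on the log2 scale. *C3*, the component both pathways share, was listed at 18.82 and 21.46 FPKM against 16.88 and 15.01 FPKM and was not called. The summed level of the 13 genes was 135 and 145 FPKM in WT PBS and 282 and 255 FPKM in sh*Pax6* PBS, and *Serping1*, the C1 inhibitor, was the most abundant.

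**Figure D3:**
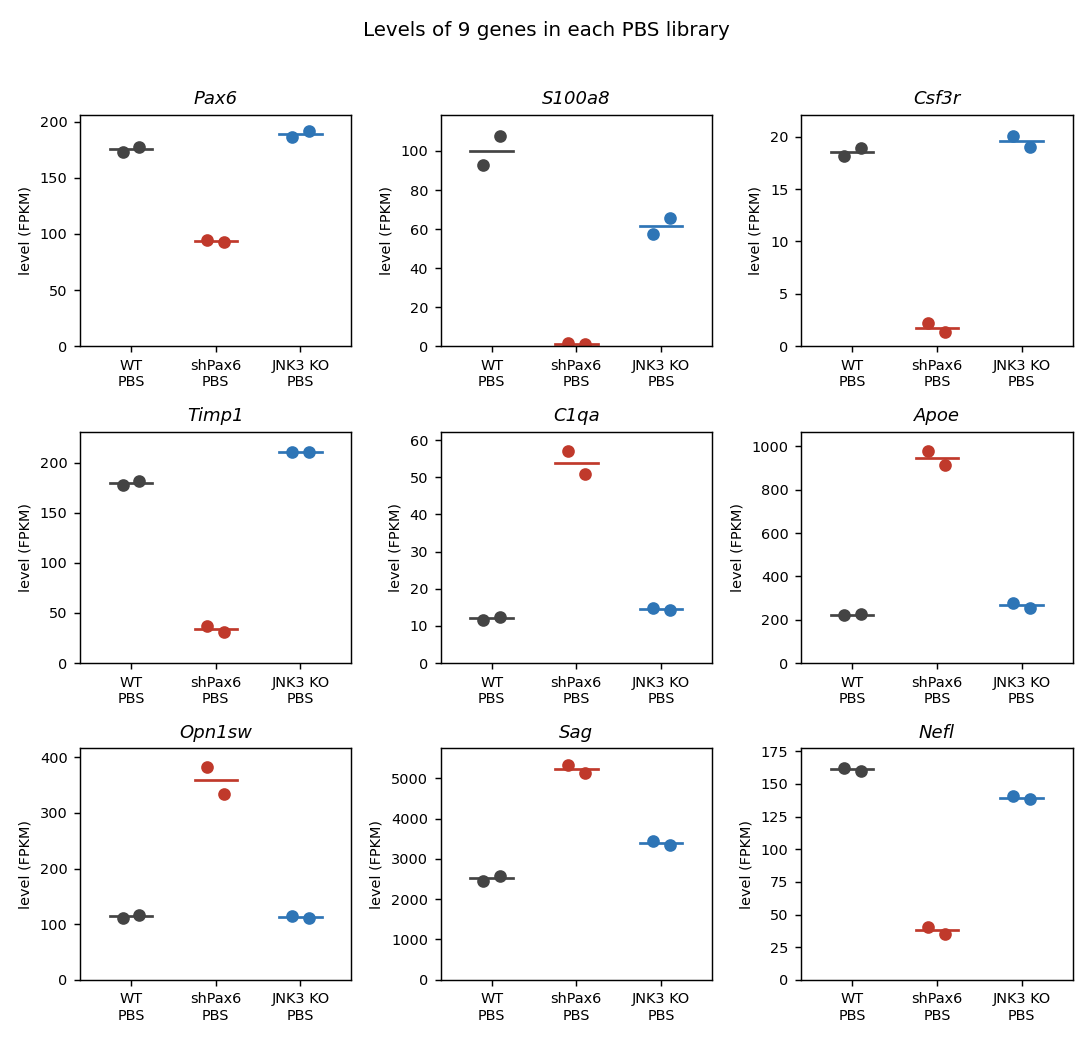
Levels in FPKM of 9 genes in the 2 libraries each of WT PBS (grey), shPax6 PBS (red) and JNK3 KO PBS (blue), with points for libraries, lines for group means and an axis that starts at 0. The shPax6 points do not overlap with the WT points in any panel, from Pax6 (94.56 and 92.84 against 173.48 and 177.3) to Nefl (40.54 and 35.34 against 162.46 and 160.25).

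Retinal ganglion cells, whose axons form the optic nerve, carry the study's outcome. Their marker genes were measured here without any NMDA. Of 23 RGC markers tested 15 fell (3.66% of all genes did), none rose and 8 were not called, with a median of -1.47. All 23 had both sh*Pax6* PBS libraries below both WT PBS libraries, beside 35.1% of all genes. The summed level of the markers was 961 and 994 FPKM in WT PBS, 344 and 338 FPKM in sh*Pax6* PBS, and 954 and 913 FPKM in JNK3 KO PBS. *Nefl*, the light neurofilament chain of large axons and the most abundant marker, was listed at 162.46 and 160.25 FPKM in WT PBS but at 40.54 and 35.34 FPKM in sh*Pax6* PBS. Its log2 fold change was -2.09 (SE 0.08, adjusted p = 1.21e-06). The RNA-binding protein genes *Rbpms* and *Rbpms2* mark RGCs of all kinds. *Rbpms* stood at 16.49 and 17.32 FPKM against 3.75 and 4.59 FPKM (-2.00, SE 0.35, adjusted p = 0.00531). *Rbpms2* stood at 16.43 and 17.98 FPKM against 2.43 and 3.32 FPKM (-2.56, SE 0.32, adjusted p = 0.000823). In both genes each knockdown library was far below each WT library. *Sncg*, gamma-synuclein, was at 127.98 and 144.76 FPKM against 48.32 and 49.81 FPKM (-1.47), and the surface glycoprotein gene *Thy1* at 142.02 and 144.87 FPKM against 43.44 and 41.11 FPKM (-1.76). *Opn4*, the melanopsin of intrinsically photosensitive RGCs, fell by 2.94, from 2.99 and 2.83 FPKM to 0.13 and 0.57 FPKM. The transcription factor gene *Pou4f1* was listed at 11.14 and 10.14 FPKM against 2.93 and 4.47 FPKM and was not called (-1.53, adjusted p = 0.153). *Slc17a6*, the vesicular glutamate transporter of RGCs, at 21.51 and 20.61 against 4.2 and 5.42 FPKM, was not called either (-2.12, adjusted p = 0.083).

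Genes of axons and of synapses followed the same direction where they were called, in a table where 3.66% of all genes fell. Among 17 axonal cytoskeleton genes 7 fell and none rose (median -0.96), including the neurofilament genes *Nefm* (-1.97) and *Nefh* (-1.57) and the kinesin gene *Kif5a* (-1.24), and 5 of the 17 also stand among the RGC markers. *Map2*, of dendrites, was at 100.41 and 99.5 FPKM in WT PBS but at 131.51 and 137.64 FPKM in sh*Pax6* PBS. Of 27 presynaptic genes 6 fell and none rose (median -0.51). *Cplx1*, a complexin that clamps vesicle fusion, was listed at 64.56 and 66.39 FPKM in WT PBS but at 13.33 and 14.32 FPKM in sh*Pax6* PBS (-2.24, SE 0.08, adjusted p = 1.21e-06). *Cplx4*, the complexin of photoreceptor ribbon synapses, stood at 317.71 and 320.69 FPKM against 371.2 and 378.55 FPKM and was not called. *Vamp1* (-1.69), *Sv2c*, *Syt2* (-1.15) and *Syn1* (-1.07) fell. *Syn1* lost its call without sh*Pax6* PBS replicate 1 (-0.95) and with a correction for gene length (-0.97). *Snap25*, the most abundant of the list, was at 636.1 and 627.13 FPKM against 424.49 and 424.55 FPKM (-0.57).

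Some ion channel genes of action potentials fell as well, again beside 3.66% of all genes. Among 8 voltage-gated sodium channel genes *Scn1a* (-1.45, SE 0.19, adjusted p = 0.00102) and *Scn4b* (-3.04, SE 0.54, adjusted p = 0.00513) fell, with a median of -0.88. Of 23 potassium channel genes 4 fell, among them *Kcna2*, *Kcnip4* and *Kcnc4* (median -0.78), and of 17 calcium channel genes 3 fell (*Cacna1h*, *Cacna1a* and *Cacnb3*, median -0.41, or -0.23 without sh*Pax6* PBS replicate 1). *Kcnc4* lost its call without WT PBS replicate 1 (adjusted p = 0.0719) and *Cacnb3* without sh*Pax6* PBS replicate 1 (-0.88), while with a pseudocount of 1 *Kcnip4* (-0.98) and *Cacnb3* (-0.99) lost theirs, as they did with a correction for gene length (-0.97 for each). None of these 3 channel lists held a gene that rose. The kainate receptor gene *Grik1*, listed at 69.68 and 67.92 FPKM in WT PBS but at 34.1 and 30.01 FPKM in sh*Pax6* PBS, was the 1 of 14 ionotropic glutamate receptor genes that fell, where 3.66% of all genes did (-1.10, SE 0.07, adjusted p = 2.92e-05, list median -0.69). The NMDA receptor subunit gene *Grin1* was at 29.79 and 27.03 FPKM against 15.81 and 13.77 FPKM and was not called (-0.94). Of 21 GABA and glycine receptor genes, *Glrb* (-1.18) and *Gabra2* (-1.25) fell (3.66% of all genes did), with a list median of -0.56. *Gabra2* lost its call without WT PBS replicate 1 (adjusted p = 0.141), WT PBS replicate 2 (0.126) or sh*Pax6* PBS replicate 1 (0.147), and with quantile normalization (0.0544) or no filter on low values (0.0512). When the spread came from the 2 groups alone, *Gabra2* (0.156), *Scn4b* (0.0685), *Kcnc4* (0.0609), *Cacna1a* (0.0633) and *Cacnb3* (0.0575) lost their calls.

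Amacrine and horizontal cells, which make PAX6 in the adult, had list medians nearer to 0 than RGC markers. In 6 of 11 amacrine transcription factor genes and 16 of 20 amacrine transmitter and peptide genes, both knockdown libraries lay below both WT libraries. So they did in 5 of 7 horizontal cell genes, beside 35.1% of all genes. They lay above in 1 of the 11 amacrine factor genes and in 0 genes of the other lists, beside 22.3% of all genes. None of 11 amacrine transcription factor genes, 20 amacrine transmitter and peptide genes or 7 horizontal cell genes was called in limma, though some met the adjusted p without the fold, in a table where 161 genes lay higher and 824 lower past the fold at an unadjusted p under 0.05. *Tfap2b*, an AP-2 factor of amacrine cells and the most abundant of its list, was at 39.87 and 37.43 FPKM in WT PBS but at 28.22 and 29.76 FPKM in sh*Pax6* PBS, and in JNK3 KO PBS at 28.84 and 28.44 FPKM. The median of these factors was -0.21 in sh*Pax6* PBS, which became 0.01 with quantile normalization. *Gad1*, the enzyme that makes GABA, stood at 107.5 and 105.15 FPKM against 91.38 and 79.29 FPKM (-0.32, adjusted p = 0.101). *Calb2*, calretinin, which amacrine cells and RGCs share, stood at 264.98 and 285.41 FPKM against 144.58 and 148.27 FPKM (-0.91, adjusted p = 7.87e-05), short of the fold required, and was called as lower with quantile normalization (-1.02, adjusted p = 5.34e-05). The median of the transmitter and peptide genes was -0.58, and their summed level was 793 and 804 FPKM in WT PBS and 539 and 510 FPKM in sh*Pax6* PBS. Horizontal cell genes had a median of -0.67, with *Prox1* the most abundant.

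Among bipolar cell genes 1 of 24 fell, *Grik1*, where 3.66% of all genes fell, and the median was -0.44. *Trpm1*, the transduction channel of ON bipolar cells, was listed at 89.01 and 81.74 FPKM in WT PBS but at 42.08 and 44.71 FPKM in sh*Pax6* PBS (-0.97, adjusted p = 3.81e-05), and *Pcp2* at 171.71 and 184.54 FPKM against 172.71 and 164.31 FPKM. Of 17 eye-field and retinogenic transcription factor genes, 0 were called in limma (161 higher and 824 lower among all genes past the fold at an unadjusted p under 0.05), though some met the adjusted p. The photoreceptor factor *Crx* was at 300.09 and 307.81 FPKM in WT PBS against 483.96 and 439.26 FPKM (0.60). The other PAX genes were close to absent. Of 8, *Pax1*, *Pax3*, *Pax4*, *Pax7* and *Pax9* were listed at 0 in all 4 libraries, and *Pax8*, at 0.27 and 0.44 FPKM against 0.2 and 0.19 FPKM, was the 1 gene tested.

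Photoreceptor genes lay on the higher side. Each of the 20 rod genes had both sh*Pax6* PBS libraries above both WT PBS libraries, beside 22.3% of all genes, but 1 of them rose, where 0.504% of all genes did, and the list median was 0.48. That gene, *Sag*, whose product arrestin ends the light response, was listed at 2456.69 and 2573.96 FPKM in WT PBS, at 5327.63 and 5126.96 FPKM in sh*Pax6* PBS, with 3445.4 and 3333.79 FPKM in JNK3 KO PBS. Its log2 fold change was 1.06 (SE 0.04, adjusted p = 1.21e-06), and 0.58 with quantile normalization, where it lost its call. *Nr2e3*, the factor that represses cone genes in rods, was at 192.2 and 189.72 FPKM against 382.68 and 372.63 FPKM (0.98, adjusted p = 1.6e-06). The rod genes summed to 34669 and 34995 FPKM in WT PBS and to 49845 and 46470 FPKM in sh*Pax6* PBS. FPKM are shares of a library, so a loss elsewhere raises such values, and its part here was not tested.

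Cone genes included 2 rises among 15 tested, where 0.504% of all genes rose, with a median of 0.66. *Opn1sw*, the short-wavelength opsin, was listed at 110.85 and 117.04 FPKM in WT PBS, at 382.51 and 334.38 FPKM in sh*Pax6* PBS, with 114.07 and 110.4 FPKM in JNK3 KO PBS (1.65 against WT PBS, SE 0.12, adjusted p = 4.24e-05). *Opn1mw*, the medium-wavelength opsin, stood at 107.58 and 108.65 FPKM against 148.6 and 154.22 FPKM (0.49) and was not called. The levels of both opsins were alike in WT, and in sh*Pax6* PBS *Opn1sw* was the higher in each library. *Cnga3*, a subunit of the cone transduction channel, rose by 1.04, a call lost without WT PBS replicate 2 (0.93), without sh*Pax6* PBS replicate 1 (0.95) and with a pseudocount of 1 (0.87) or 0.5 (0.96). It also lost it with the spread of the 2 groups alone (adjusted p = 0.0793). The summed level of cone genes was 1293 and 1317 FPKM in WT PBS and 2290 and 2149 FPKM in sh*Pax6* PBS, with *Gnb3* the most abundant.

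**Figure D4:**
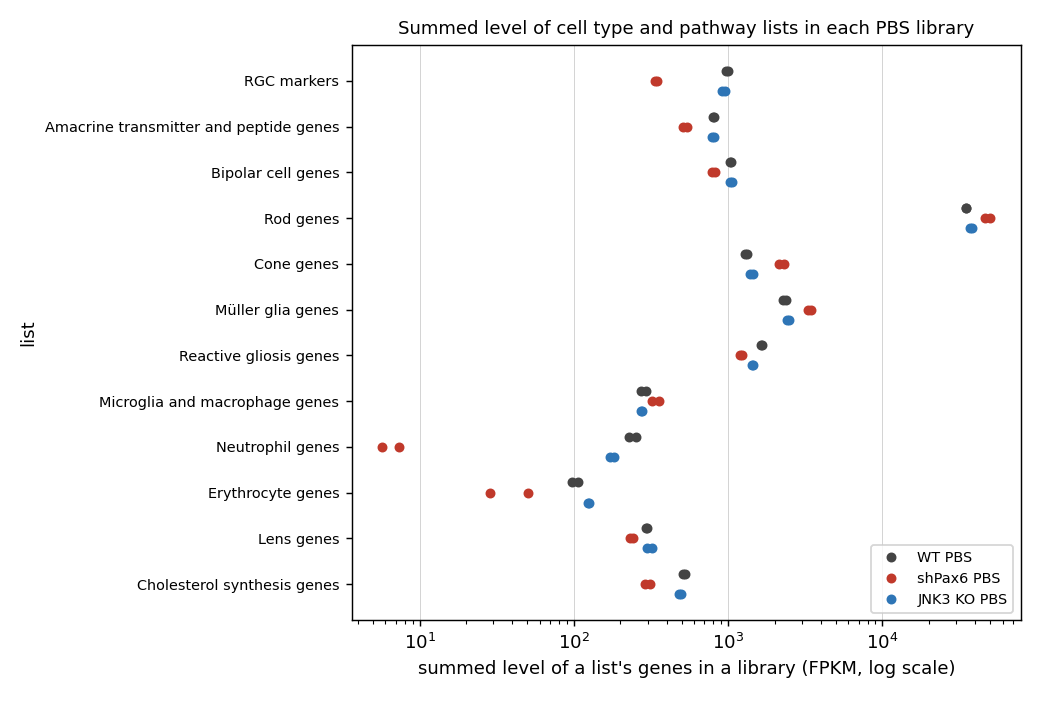
Summed level in FPKM (log scale) of the genes of 12 lists in each of the 2 WT PBS (grey), 2 shPax6 PBS (red) and 2 JNK3 KO PBS (blue) libraries. Neutrophil genes stand at 7.39 and 5.74 in shPax6 PBS against 228 and 254 in WT PBS, RGC markers at 344 and 338 against 961 and 994, and rod genes at 49845 and 46470 against 34669 and 34995.

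Müller glia, the radial glia that support all retinal layers, gave a mixed picture. Of 18 genes 2 rose (0.504% of all genes did) and none fell (3.66% of all genes did), with a median of 0.22 (0.11 without WT PBS replicate 1). *Apoe*, the lipid carrier that Müller cells and microglia secrete, was listed at 219.48 and 226.46 FPKM in WT PBS, at 979.88 and 916.06 FPKM in sh*Pax6* PBS, with 278.35 and 254.52 FPKM in JNK3 KO PBS. Its log2 fold change was 2.09 (SE 0.06, adjusted p = 5.49e-07), the largest rise among called genes with a mean above 100 FPKM. *Car14*, a carbonic anhydrase of Müller cells, rose by 1.51. The glutamine synthetase gene *Glul* was at 214.4 and 215.19 FPKM against 397.19 and 388.07 FPKM (0.87) and the filament gene *Vim* at 338.96 and 367.97 FPKM against 219.64 and 195.37 FPKM (-0.77), both short of the fold required. The list summed to 2280 and 2387 FPKM in WT PBS and to 3463 and 3302 FPKM in sh*Pax6* PBS, sums that include *Apoe*. Of the 18 genes, 9 had both knockdown libraries above both WT libraries and 7 below, beside 22.3% and 35.1% of all genes.

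Genes of reactive gliosis went both ways. Of 18, 5 fell (*Timp1*, *Cd44*, *Nes*, *Socs3* and *Osmr*), 2 rose (*Edn2* and *C4b*) and 11 were not called, where 3.66% of all genes fell and 0.504% rose, with a median of -0.50. *Timp1*, an inhibitor of matrix proteases induced by cytokines of the interleukin 6 family, stood at 177.79 and 181.79 FPKM in WT PBS, at 36.73 and 30.96 FPKM in sh*Pax6* PBS, with 210.57 and 210.92 FPKM in JNK3 KO PBS (-2.41 against WT PBS, SE 0.08, adjusted p = 1.02e-06). *Edn2*, endothelin 2, which stressed photoreceptors release, was at 56.87 and 56.9 FPKM against 147.52 and 137.7 FPKM (1.32, SE 0.06, adjusted p = 4.43e-06). *Gfap*, the usual marker of gliosis, was at 78.01 and 81.59 FPKM against 50.36 and 42.86 FPKM and did not reach the fold required (-0.78). *Lcn2*, the most abundant of the list, was at 773.69 and 804.78 FPKM against 507.04 and 500.26 FPKM (-0.65).

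Genes of other tissues were examined for the RNA they could bring. Of 5 erythrocyte genes 4 fell (3.66% of all genes did), with a median of -1.64, and their summed level was 97.3 and 107 FPKM in WT PBS and 50.3 and 28.7 FPKM in sh*Pax6* PBS. *Hbb-bs*, a beta globin and the most abundant, was at 50.02 and 53.33 FPKM against 29.85 and 18.24 FPKM (-1.14), which was -0.79 without sh*Pax6* PBS replicate 2 and no longer a call. *Hba-a1* (-1.64) kept its call without any of the 4 libraries, *Hbb-bt* (-4.20) lost it without WT PBS replicate 2 (adjusted p = 0.0543), and *Hba-a2* (-1.70) lost it without WT PBS replicate 1 (0.0794), WT PBS replicate 2 (0.0792) or sh*Pax6* PBS replicate 2 (by its fold). All 4 calls ended with the spread of the 2 groups alone, at adjusted p from 0.0823 for *Hba-a1* to 0.181 for *Hba-a2*. Lens crystallins numbered 3 falls among 18 lens genes (median -0.70), where 3.66% of all genes fell, with summed levels of 296 and 293 FPKM in WT PBS and 240 and 232 FPKM in sh*Pax6* PBS. *Cryab*, the most abundant and also made in retina, was at 111.55 and 106.1 FPKM against 98.3 and 103.99 FPKM. *Cryge* fell from 8.35 and 8.57 FPKM to 0 and 0.1 FPKM, while *Crygd* (-1.22) lost its call without sh*Pax6* PBS replicate 2 (-0.95) and *Crygf* (-3.52) without WT PBS replicate 2 (adjusted p = 0.0684). Both also lost it with the spread of the 2 groups alone (0.0991 for *Crygd*, 0.149 for *Crygf*). *Crygf* stood at -2.32 without sh*Pax6* PBS replicate 1 and at -4.72 without replicate 2. The part of these tissues in the results was not tested.

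T and NK cell genes held 1 fall among 10 tested, where 3.66% of all genes fell, namely *Gzma* (-3.24), which lost its call without WT PBS replicate 1 (adjusted p = 0.191), WT PBS replicate 2 (0.104) or sh*Pax6* PBS replicate 1 (0.170), without a filter on low values (0.0592) and with the spread of the 2 groups alone (0.0820). *Lck*, a kinase of T cell receptor signalling, lay the other way, with both sh*Pax6* PBS libraries (3.5 and 1.49 FPKM) above both WT PBS libraries, and was not called (1.31, SE 0.40, adjusted p = 0.0541). It was called as higher without sh*Pax6* PBS replicate 2 (1.90), with quantile normalization (1.61), with upper quartile scaling (1.33), without the trend of the variances (adjusted p = 0.0485) and with a correction for length (1.36). Their sum was 22.1 and 21.2 FPKM in WT PBS and 21.1 and 13.1 FPKM in sh*Pax6* PBS, mostly from *Ccl5*, and the T cell marker *Cd3e* was at or under 0.09 FPKM in each library. No gene was called in limma among 15 of endothelium and pericytes (median -0.37), 8 of pigment epithelium (0.15, but -0.04 without sh*Pax6* PBS replicate 1 and 0.34 without replicate 2), 4 of skeletal muscle (-0.64, or -0.20 without WT PBS replicate 1) and 3 of myelin (-0.42), where the whole table held 161 higher and 824 lower genes past the fold at an unadjusted p under 0.05. The muscle myosin genes *Myh1*, *Myh2* and *Myh4* and the myelin gene *Mog* were listed at 0 in all 4 libraries. No corneal or conjunctival gene of 6 was tested, the highest of their values being 0.3 FPKM.

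Responses that a virus or a small RNA might meet were looked at by lists of their own. Of 30 interferon-stimulated genes 1 fell (3.66% of all genes did) and none rose, with a median of -0.25 in sh*Pax6* PBS and -0.49 in JNK3 KO PBS. That gene, *Stat2*, a transcription factor of the interferon response, was at 54.43 and 56.72 FPKM in WT PBS, at 29.67 and 24.29 FPKM in sh*Pax6* PBS, with 81.85 and 86.89 FPKM in JNK3 KO PBS (-1.05 against WT PBS), and it lost its call without sh*Pax6* PBS replicate 2 (-0.90) and with a correction for gene length (-0.95). *Isg15* was at 24.0 and 26.78 FPKM against 29.51 and 25.88 FPKM, with overlapping groups. Neither the 14 genes of antigen presentation (median -0.35), nor the 8 of nucleic acid sensing (0.06, but -0.08 without WT PBS replicate 1), nor the 12 of the small RNA machinery (0.12, or 0.06 without WT PBS replicate 2) held a gene called in limma, though each list held at least 1 gene that met the adjusted p without the fold, beside 161 higher and 824 lower genes of the table past the fold at an unadjusted p under 0.05. *Ddx58*, which encodes the RNA sensor RIG-I and stands on the interferon list too, was called as lower without sh*Pax6* PBS replicate 2 (-1.03, adjusted p = 0.00519). *Dicer1* was listed at 18.73 and 17.21 FPKM in WT PBS but at 19.41 and 22.14 FPKM in sh*Pax6* PBS, and *Ago2* at 12.25 and 11.1 FPKM against 12.43 and 13.47 FPKM.

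Lists of stress and death genes held a few calls, where 0.504% of all genes rose and 3.66% fell. *Cdkn1a*, the cell cycle inhibitor p21 and a target of p53, was listed at 3.83 and 4.61 FPKM in WT PBS but at 14.13 and 12.13 FPKM in sh*Pax6* PBS (1.62, SE 0.18, adjusted p = 0.000444). With *Sesn2* (1.11) it made 2 rises among 22 p53 target genes, and *Fas* (-1.46) the 1 fall, with a median of 0.17 (0.28 without WT PBS replicate 2). *Mdm2*, another target of p53, was at 20.66 and 21.62 FPKM against 22.16 and 26.35 FPKM. *Sesn2* and *Chac1* (1.64), which ATF4 induces, rose among 13 genes of the integrated stress response, with a median of 0.32 (0.21 without sh*Pax6* PBS replicate 2). Without WT PBS replicate 2 *Sesn2* stood at 0.96 and *Chac1* had an adjusted p of 0.0512, so neither was called. Of 27 pro-apoptotic genes *Fas* and *Casp8* (-1.13) fell, and of 10 anti-apoptotic genes *Birc3* (-1.77) fell, with medians of -0.05 and 0.02, which both changed sign without sh*Pax6* PBS replicate 2 (0.06 and -0.02). The calls of *Fas* (adjusted p of 0.0646 to 0.114), *Casp8* (0.0583 to 0.143) and *Birc3* (0.0935 to 0.134) rested on single libraries: *Fas* lost its call without any 1 of the 4, *Casp8* without WT PBS replicate 2 or either sh*Pax6* PBS library, and *Birc3* without either WT PBS library or sh*Pax6* PBS replicate 2. *Casp8* also lost it with a pseudocount of 1 (-0.77) or 0.5 (-0.93) and with quantile normalization (-0.85). With the spread of the 2 groups alone none of *Sesn2* (adjusted p = 0.0565), *Chac1* (0.0524), *Fas* (0.0609), *Casp8* (0.181) and *Birc3* (0.142) was called. *Bax* was at 34.0 and 41.09 FPKM against 43.88 and 39.48 FPKM. In the JNK pathway 0 of 11 genes were called in limma, though some met the adjusted p (median -0.19), and *Mapk10*, which encodes JNK3, was at 42.79 and 50.72 FPKM against 20.86 and 21.33 FPKM (-1.14, SE 0.36, adjusted p = 0.0634). *Egr1* was the 1 of 15 immediate early genes that rose (1.04), and it also rose in JNK3 KO PBS (1.39). Its call against WT PBS was lost without WT PBS replicate 2 (0.97), without sh*Pax6* PBS replicate 1 (by its fold) and with a pseudocount of 1 (0.94) or 0.5 (0.99).

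Cholesterol synthesis and uptake genes are switched on by SREBP2 when sterols are low. All 18 had both sh*Pax6* PBS libraries below both WT PBS libraries (35.1% of all genes did), 5 fell (3.66% of all genes did) and none rose, and the median was -0.68, against -0.06 in JNK3 KO PBS. *Insig1*, the sterol-regulated brake on SREBP, stood at 39.62 and 36.59 FPKM in WT PBS and 8.58 and 12.87 FPKM in sh*Pax6* PBS (-1.85, SE 0.17, adjusted p = 0.000136). *Hmgcs1* (-1.07) and *Fdps* fell at the edge of the fold required. *Fdps* was -0.79 without sh*Pax6* PBS replicate 2, and with a correction for gene length *Fdps* and *Hmgcs1* were both at -0.97. The call of *Fdps* was also lost with a pseudocount of 1 (-0.98) or 0.5 (by its fold) and with upper quartile scaling (-0.99). *Insig1* (adjusted p = 0.0556) and *Fdps* (0.0763) lost their calls with the spread of the 2 groups alone. The sum over the list was 524 and 512 FPKM in WT PBS and 313 and 290 FPKM in sh*Pax6* PBS.

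Long noncoding RNAs on a list of 12, of which 10 were tested, held 4 falls and no rise, with a median of -1.28. Of all 1460 long noncoding genes tested, 49 fell (3.36%). *Snhg11*, a host gene of small nucleolar RNAs in neurons, was at 210.22 and 211.18 FPKM in WT PBS, at 80.9 and 79.65 FPKM in sh*Pax6* PBS, with 198.99 and 201.78 FPKM in JNK3 KO PBS (-1.39 against WT PBS, SE 0.05, adjusted p = 1.21e-06). *Meg3*, the maternally expressed RNA of an imprinted cluster, was at 208.21 and 211.12 FPKM against 75.77 and 77.45 FPKM (-1.45, SE 0.07, adjusted p = 8.04e-06). *Neat1*, the scaffold of paraspeckles, fell by 1.24. *Miat* fell by 1.81 but lost its call without WT PBS replicate 1 (adjusted p = 0.0735) or 2 (0.0533), and with the spread of the 2 groups alone (0.151). *Bc1* was called as lower without sh*Pax6* PBS replicate 2 (-1.28, adjusted p = 0.00494) and not in the main model. *Malat1* was at 170.71 and 143.81 FPKM against 110.16 and 104.29 FPKM and was not called.

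Genes of general cell function gave few calls. None of 20 glycolysis genes (median -0.03, but 0.01 without sh*Pax6* PBS replicate 2), 13 mitochondrially encoded genes (-0.06, or -0.20 without sh*Pax6* PBS replicate 2), 87 cytosolic ribosomal protein genes (0.02, but -0.04 without WT PBS replicate 1 and 0.08 without replicate 2), 80 mitochondrial ribosomal protein genes (0.10), 53 clustered protocadherin genes (-0.40), 15 clock genes (-0.14, or -0.08 without sh*Pax6* PBS replicate 2) or 12 proliferation genes (0.66, or 0.25 without sh*Pax6* PBS replicate 2) was called in limma, though each list held at least 1 gene that met the adjusted p without the fold, in the table with 161 higher and 824 lower genes past the fold at an unadjusted p under 0.05. *mt-Atp8* was called as higher without sh*Pax6* PBS replicate 1 (1.06, adjusted p = 0.000257). Of 90 respiratory chain genes *Cox6a2*, the muscle form of a cytochrome oxidase subunit, rose, from 0.08 and 0 FPKM to 3.65 and 5.62 FPKM (5.11, SE 0.81, adjusted p = 0.00300), with 0.84 and 0.7 FPKM in JNK3 KO PBS. That is 1 of 90 genes, where 0.504% of all genes rose. *Gapdh* was at 2429.79 and 2493.3 FPKM against 2471.2 and 2347.36 FPKM.

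Several of the largest rises belonged to genes outside these lists. *Serpine3*, a serine protease inhibitor, was listed at 1.86 and 1.59 FPKM in WT PBS, at 9.29 and 5.46 FPKM in sh*Pax6* PBS, with 0.48 and 0.59 FPKM in JNK3 KO PBS (1.99 against WT PBS, SE 0.36, adjusted p = 0.00563). *Cdcp3* stood at 5.84 and 5.69 FPKM against 18.91 and 20.01 FPKM (1.74), *Lrrc66* at 2.63 and 2.53 FPKM against 9.84 and 7.38 FPKM (1.69), and *2610528A11Rik* at 1.88 and 2.9 FPKM against 10.94 and 9.06 FPKM (2.04). In each of the 4 the knockdown libraries were the higher ones, without overlap. When the spread came from the 2 groups alone, *Serpine3* (adjusted p = 0.0808), *Lrrc66* (0.0550) and *2610528A11Rik* (0.0633) lost their calls. *Fcamr*, an Fc receptor for IgA and IgM, rose by 1.67, a call that ended on leaving out any 1 of the 4 libraries (adjusted p of 0.0653 to 0.173) without a filter on low values (0.0726) and with the spread of the 2 groups alone (0.0677).

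**Figure D5:**
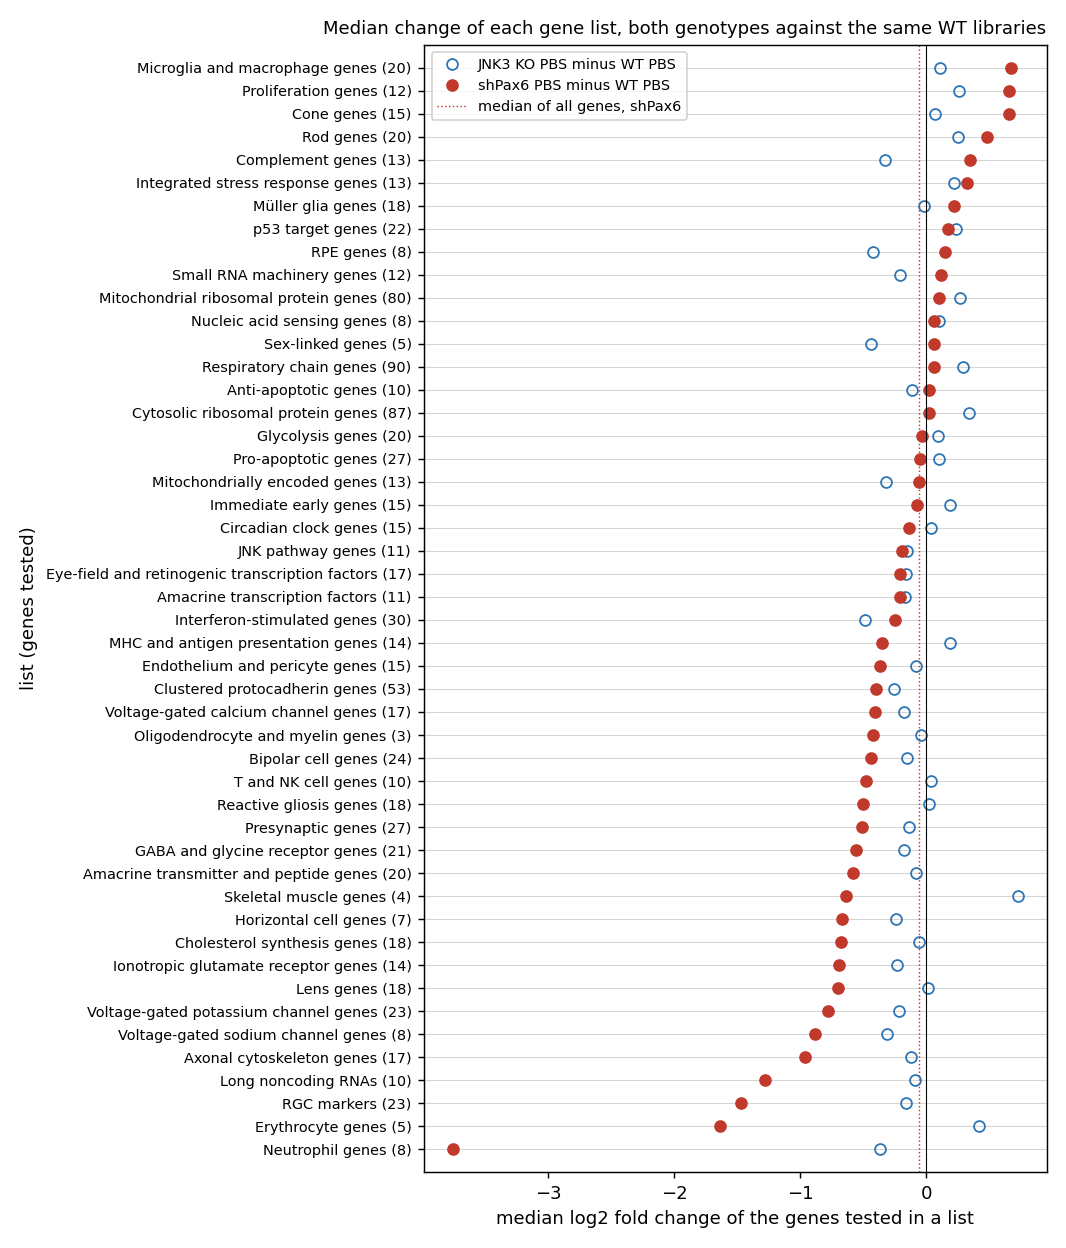
Median log2 fold change of the genes tested in each of 48 lists with at least 3 such genes, for shPax6 PBS minus WT PBS (red) and JNK3 KO PBS minus WT PBS (open blue), which share the WT libraries. The dotted line is the median of all genes in shPax6 PBS (-0.06). Neutrophil genes lie lowest at -3.76 and RGC markers at -1.47. Microglia and macrophage genes lie highest at 0.67, beside 0.66 for cone and for proliferation genes. Without shPax6 PBS replicate 2 the cone median (0.77) is above that of microglia and macrophage genes (0.54).

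Transcripts were tested in the same way. Of 49940 transcripts 184 rose (0.368%), from 172 genes, and 540 fell (1.08%), from 512 genes, and 3667 passed the fold at an unadjusted p under 0.05. Isoform use, the change of a transcript against the other transcripts of its gene, differed in 473 of 43980 transcripts (1.08%), with 218 raised and 255 lowered, in 364 of 10333 genes. In 460 of the 473 the gene itself was not called. With a correction for length 271 transcripts rose and 328 fell. With the spread of the 2 groups alone 0 rose and 0 fell in limma, with 3009 past the fold at an unadjusted p under 0.05, and 921 changed in isoform use. Without sh*Pax6* PBS replicate 2 the isoform count was 2278, the transcripts that rose numbered 647 and those that fell 1848, so these counts depended on that library. Without WT PBS replicate 1 or 2, 93 or 83 transcripts rose and 198 or 195 fell. *Ppp1r15a*-203, of a gene whose product lets translation resume after stress, was listed at 1.62 and 2.33 FPKM in WT PBS but at 0 in both sh*Pax6* PBS libraries, while the gene had a log2 fold change of 0.07. *Zbtb33*-203 was likewise at 1.53 and 1.08 FPKM against 0 and 0 FPKM, with 0.18 for its gene. A transcript of *Rps6ka5* of 4406 bases was at 0 in WT PBS but at 1.38 and 0.8 FPKM in sh*Pax6* PBS. A transcript of *Mest* with a retained intron, at 7.23 and 1.71 FPKM against 0 and 0 FPKM, was lowered, and *Thsd7a*-206 (3.15) and *Rnf185*-202 (4.29) were raised against the other transcripts of their genes, with transcript log2 fold changes of -0.55 and 0.24.

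JNK3 KO retinas under PBS differed from WT in far fewer genes. There 17 genes rose (0.103%) and 21 fell (0.127%) of 16471, with a median of 0.00, and this comparison shares the WT libraries with that of sh*Pax6*. The contrast of sh*Pax6* PBS with JNK3 KO PBS, which holds no WT library, gave 122 genes higher (0.741%) and 527 lower (3.20%) in sh*Pax6*. In that contrast *Pax6* itself had a log2 fold change of -1.01 (SE 0.07, adjusted p = 4.31e-05). Of 23 RGC markers 14 were lower there, of 8 neutrophil genes 5, of 20 microglia and macrophage genes 3 were lower and 6 higher, and of 5 erythrocyte genes 4 were lower. No cone gene but *Opn1sw* was higher (1.67), and no rod gene was called, *Sag* having a value of 0.62. The summed level of the neutrophil genes was 171 and 183 FPKM in JNK3 KO PBS, between WT and sh*Pax6* PBS.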

How the data were processed

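The values are FPKM of genes and transcripts as the authors deposited them. By the submitters' notes, reads were aligned to GRCm38.p6 with STAR 2.7.1a and quantified with RSEM 1.3.3, and edgeR 3.36.0 under R 4.1.0 was used downstream. Gene identifiers matched the annotation in 99.38% of entries and transcript identifiers in 99.07%. Counts were not used here, so depth was estimated from the spacing of low FPKM values in short genes with 1 transcript, a step chosen after values were seen.

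A linear model of log2(FPKM + 0.1) with 6 group means over all 12 libraries (residual degrees of freedom 6) was estimated in R 4.3.3, with the data.table package at version 1.17.8, by limma 3.58.1, with moderated variances that follow the mean level. The filter kept genes and transcripts that averaged over 1 FPKM in any of the 6 groups. For a call, the p adjusted by Benjamini and Hochberg had to be under 0.05, the log2 fold change beyond 1 in either direction, and either group's average over 1 FPKM. Isoform use was tested with diffSplice. Other steps used Python 3.11.15 with numpy 2.4.6, pandas 2.3.3 and matplotlib 3.10.9. The model was tested on simulated data. As alternatives, the results were computed with a pseudocount of 1 or 0.5, without the filter, with a filter on the average of all 12 libraries, with TPM, upper quartile and quantile scaling, the spread of the 2 groups alone, no trend, a replicate block, a length correction, and leaving out each library.

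Genes were named by a rule: *Pax6*, the 12 protein-coding genes with the largest falls and the 12 with the largest rises among those called with a mean above 1 FPKM in both groups, in each list the 3 most abundant genes and up to 4 called genes of smallest adjusted p, and the 6 called genes of smallest adjusted p against JNK3 KO PBS. For isoforms, the 6 transcripts of smallest adjusted p from different genes were named. Other named genes were chosen after their values were seen. Members and lists were chosen with earlier results of these data known, and the motifs and printed promoters after values were seen. Results for some genes that the rule takes are not reported here.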

Additional observations from a re-analysis of the deposited data

Results flagged for a closer look

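These values are differences between sh*Pax6* PBS and JNK3 KO PBS retinas, 2 genotypes tested directly against each other with limma and 2 libraries per group, for the 6 called genes of smallest adjusted p. The log2 difference of *Timp1* was -2.64 (adjusted p = 1.29e-06), with both sh*Pax6* libraries lower. *S100a8* had a difference of -5.47 (adjusted p = 1.29e-06) and *S100a9* of -5.11 (adjusted p = 1.29e-06), again lower in both sh*Pax6* libraries. For *Apoe* it was 1.83 (adjusted p = 1.44e-06), with both sh*Pax6* libraries higher. *Chil1* stood at -1.79 (adjusted p = 1.75e-06) and *Snhg11* at -1.32 (adjusted p = 3.23e-06), both lower in both sh*Pax6* libraries. The knockdown vector and the genotype differ together in this contrast, and their parts cannot be told apart.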

How the results depend on the processing

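The log2 fold change of *Pax6* lay between -0.93 and -0.84 under every alternative and without any 1 library, with adjusted p from 5.44e-05 to 0.0208. Of 3056 values of 204 other named genes over the alternatives and left-out libraries, 2944 stayed on their side of the call, 11 gained a call, 0 reversed and the others lost it. Those that stayed include values of genes without a call in the main model, which had none to lose. Of 734 list medians 126 moved, and that of the amacrine transcription factors (0.01) and of the PAX genes (0.26) changed sign with quantile normalization. Medians within 0.15 of 0 also changed sign under some setting or without 1 library: pigment epithelium, nucleic acid sensing, immediate early, pro-apoptotic, anti-apoptotic, glycolysis, cytosolic ribosomal and sex-linked genes.

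Quantile normalization raised the genes that rose from 83 to 170, with 71.8% of calls lower against 87.9%. With the spread of the 2 groups alone, 42 genes rose and 252 fell, 921 transcripts changed in isoform use and 178 genes differed from JNK3 KO PBS (649 in the main model). That setting gave 0 transcripts higher and 0 lower in limma, with 3009 past the fold at an unadjusted p under 0.05. With the length correction 271 transcripts rose and 328 fell, against 184 and 540. The cause of these shifts was not tested.

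Leaving out 1 library gave 60 to 200 genes higher (200 without sh*Pax6* PBS replicate 2) and 347 to 724 lower (376 without WT PBS replicate 1, 347 without replicate 2). Transcripts higher ranged from 83 to 647 and lower from 195 to 1848. Without WT PBS replicate 1 they numbered 93 and 198, without WT PBS replicate 2 83 and 195, and without sh*Pax6* PBS replicate 2 647 and 1848. For isoform use and for the contrast with JNK3 KO PBS only the sh*Pax6* PBS libraries were left out: 383 isoform changes without replicate 1 and 2278 without replicate 2, and 557 and 912 differences from JNK3 KO PBS.

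With replicates as a block, 82 genes rose and 582 fell, and *Lck* was called as higher (adjusted p = 0.0488). The labels state no pairing, and deviations of replicates correlated by 0.04. Depth was estimated at 21.4 to 24.8 M fragments (M for 1e6), which limits genes near 0 FPKM. The estimate for sh*Pax6* PBS replicate 1 rests on the poorest fit, with 185 values.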
